A study of Mus musculus with 12 samples.

Results

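Mice fed the high-fat diet (HFD) with an ethanol extract of chrysanthemum leaf (CLE) were compared with mice fed the HFD with luteolin (LU), a flavonoid of the same plant, across all genes of epididymal white adipose tissue (eWAT). The comparison takes the 3 CLE libraries and the 3 LU libraries, 6 of the 12 libraries in the series, as the labels assign them. CLE mice 2, 4 and 11 received the HFD with 1.5% (w/w) CLE, and LU mice 2, 3 and 8 received the HFD with 0.003% (w/w) luteolin. All 6 were male C57BL/6J mice of 21 weeks, on these diets for 16 weeks, and the HFD was common to both groups. The other 6 libraries, from 3 mice on a normal diet (ND) and 3 on the HFD alone, give the reference levels and a part of the estimate of spread. Each supplement was given at 1 dose, and the 2 doses were not matched in luteolin. The study chose the sequenced animals as representative of larger groups, which limits what 3 mice can stand for. The question was where an extract of many compounds and 1 of its flavonoids given alone leave different transcript levels in the same obese fat depot.

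In white adipose tissue, adipocytes store triglyceride in 1 large droplet, release it by lipolysis and secrete hormones such as adiponectin and leptin. In obesity, macrophages gather around dying adipocytes, take up lipid, present antigen on MHC class II and secrete chemokines that draw in monocytes and lymphocytes, while fibroblasts lay down collagen. Transcripts of these cells are therefore read together with those of adipocytes in whole tissue, in which fewer cells of a type and less RNA per cell cannot be told apart.

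Transcript levels are given in FPKM (fragments mapped to a transcript, relative to its length and to all mapped fragments), summed over the transcripts of a gene. Without read counts, the depth of the libraries is unknown. The gene totals of the 6 libraries lay between 436646 and 456453 FPKM, and the median ratio to the geometric mean of all libraries lay between 0.971 and 1.03. Over all deposited transcripts, totals ran from 1.51e+06 FPKM in CLE mouse 11 to 6.41e+06 FPKM in LU mouse 3. Unannotated transcripts, which were not used, held 70.4% and 92.7% of the FPKM in these mice. The defining markers of adipocytes were high in all 6, with *Adipoq* between 1629 and 2156 FPKM. Pearson's r across genes was 0.981 to 0.987 between CLE mice, 0.984 to 0.989 between LU mice and 0.976 to 0.989 between mice of different groups, so that a pair from the 2 groups could be as alike as a pair within one. On the first principal component of the 12 libraries, with 64.7% of the variance, CLE mice 2 and 4 lay at -18.1 and -15.3, but CLE mouse 11 lay at 1.18, among LU mice 2, 3 and 8 at -2.28, -7.09 and 7.62. CLE mouse 11 also carried skin transcripts, with *Krtdap*, a gene of the epidermis, at 586 FPKM against 0.719 to 20.4 FPKM in the other 5 mice. The titles of CLE mouse 4 and LU mouse 2 carry the letter R, 1 library in each group, and what the letter marks is not given in the sources used here.

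Over all genes, the 2 supplements left eWAT with closely similar transcript levels. Of 12796 genes tested with limma on log2(FPKM + 1), 1 passed both thresholds of a call, a fold change over 1.5 and, after Benjamini-Hochberg adjustment, a p under 0.05, which is 0.00781% of the genes tested. It was *Xcl1*, lower in CLE. The median absolute difference between CLE and LU was 0.09 on the log2 scale and its 95th percentile 0.35, against a median standard error of 0.12. Against the HFD group, the median absolute difference was 0.23 for CLE and 0.21 for LU. A difference over 1.5-fold of FPKM + 1 in either direction was fitted for 143 genes (1.12%).

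**Figure D1:**
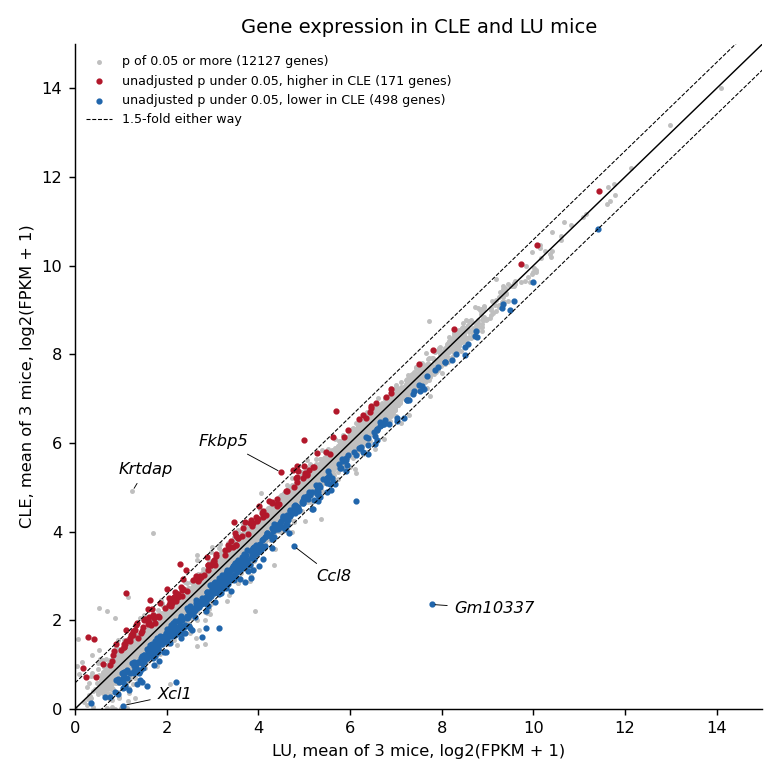
Mean log2(FPKM + 1) of the 3 CLE mice (vertical axis) against that of the 3 LU mice (horizontal axis) for each of the 12796 genes tested. Red and blue points are the 171 and 498 genes with an unadjusted p under 0.05, dashed lines mark 1.5-fold, and 143 genes lie beyond them.

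A missing call does not show that a gene was equal in both groups, so the 95% interval of each difference was used to say which sizes the data allow. For 10752 genes (84.0%), the interval lay wholly within 1.5-fold of FPKM + 1 either way. In low genes such an interval still allows a larger fold of FPKM itself. The share was 74.8% among genes with a mean under 5 FPKM, 87.1% between 5 and 20 FPKM, 88.7% between 20 and 100 FPKM and 83.9% from 100 FPKM. Low expression thus left wider intervals than moderate expression, and the share was no larger among the most abundant genes than between 5 and 100 FPKM. Over all genes the share was 70.3% when each gene was read from its transcript with the highest mean, the lowest of the alternatives. It was 73.0% when 0.1 in place of 1 was added to the FPKM.

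Single genes were further described by the sign of the difference, by unadjusted p-values and by whether the 3 mice of each group overlap. By sign alone, 5215 genes (40.8%) were higher in CLE and most of the others lower, which is the background for each count by sign below. An unadjusted p under 0.05 was reached by 669 genes, 5.23% of those tested. Of them 171 were higher in CLE (1.34%) and 498 were lower (3.89%). The 3 CLE and 3 LU mice did not overlap in 1151 genes (8.99%), of which 347 were higher in CLE (2.71%) and 804 lower (6.28%). The shares by p and by overlap are the background for the list counts below. The surplus of genes lower in CLE moved with the scaling of the libraries. The counts with p under 0.05 were 204 higher and 385 lower once totals were made equal, 256 and 350 when median ratios set the scale, and 325 and 333 after quantile normalization. The genes without overlap numbered 461 higher and 633 lower, 552 and 561, and 610 and 493 in these scalings, so that with quantiles the more frequent direction changed.

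The number of nominal differences also turned on single mice. Without CLE mouse 11, the mouse nearest to the LU group and with skin transcripts, 1351 genes (10.6%) had p under 0.05, 360 higher and 991 lower. List counts without this mouse are to be read beside that share. Without CLE mouse 2, 395 genes remained under this p, 161 higher and 234 lower. Leaving out LU mouse 8, which had the highest *Trem2* and *Adgre1* of its group, gave 135 higher and 349 lower. Without the libraries with the letter R, which leaves 2 mice a group, the counts were 204 and 546.

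**Figure D2:**
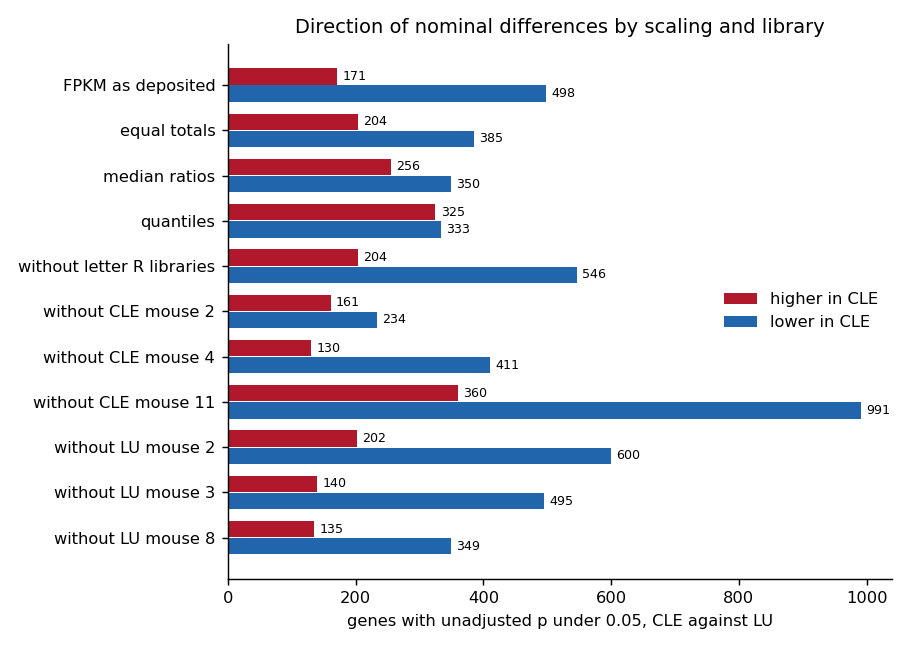
Number of genes (horizontal axis) whose difference had an unadjusted p under 0.05, with the FPKM as deposited, with 3 other scalings and without single libraries. Red bars are genes higher in CLE and blue bars genes lower in CLE, from 171 and 498 as deposited to 325 and 333 with quantiles.

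*Xcl1* (chromosome 1, 164931644 to 164935527 in GRCm38) encodes a chemokine of activated T cells and natural killer (NK) cells that attracts cross-presenting dendritic cells. It was listed at 0.162, 0 and 0 FPKM in CLE mice 2, 4 and 11, and at 1.06, 0.92 and 1.22 FPKM in LU mice 2, 3 and 8. Every CLE mouse lay below every LU mouse. The difference was -0.97 on the log2(FPKM + 1) scale (95% interval -1.23 to -0.72, limma with Benjamini-Hochberg adjustment, adjusted p = 0.0389). An exact permutation test over the 6 mice gave p = 0.1, two-sided, the smallest that 3 mice against 3 allow. The HFD mice had 1.14, 0.906 and 0.898 FPKM and the ND mice 0.407, 0.554 and 0.162 FPKM, so the LU mice overlapped the HFD mice, and CLE mouse 2 met the lowest ND mouse. All of these levels are near 1 FPKM or below, at the edge of the filter, and the zeros may be failed estimates. *Xcl1* passed that filter through 3 libraries, HFD mouse 12 and LU mice 2 and 8, and through no CLE mouse. Fits without single libraries kept the same genes, so it stayed tested there also without these mice. The difference lay between -3.07 and -0.89 in the 24 alternatives in which *Xcl1* was tested. In many of them the direction could not change. Leaving out an ND or HFD mouse cannot move a difference between CLE and LU. Nor can a fit of the CLE and LU libraries alone or another estimate of the spread. The call was lost in 19 of the 24, among them each of the 6 that left out a CLE or LU mouse. The adjusted p from limma ranged from 0.0145 to 0.405. *Xcr1*, its receptor, was under the filter, with 0.229 to 0.438 FPKM in CLE mice and 0.296 to 0.418 FPKM in LU mice.

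Markers of the cells that make *Xcl1* were measured alongside. Of 32 listed genes of T cells and NK cells, 15 passed the filter, each lower in CLE by sign, with a median difference of -0.28 against -0.03 over all tested genes. In *Nkg7*, a granule protein of cytotoxic cells, the CLE mice had 0.444, 1.61 and 1.08 FPKM and the LU mice 1.37, 3.40 and 2.47 FPKM. *Lck*, the kinase of the T cell receptor, had 1.29, 1.06 and 1.54 FPKM in CLE and 1.53, 3.12 and 2.58 FPKM in LU. These 2 were the members with p under 0.05 (unadjusted p = 0.0236 and 0.0162 from limma). At this p 3.89% of all genes were lower in CLE. The list's median rested on LU mouse 3, without which it was 0.01. *Ncr1*, a receptor of NK cells, was at 0.635, 0.95 and 1.00 FPKM in CLE and at 0.882, 0.952 and 0.808 FPKM in LU, so the groups overlapped in this defining marker. The part of these cells in the difference of *Xcl1* was not tested.

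The next smallest adjusted p of any gene was 0.531. In the comparisons that follow, the adjusted p from limma was 0.787 for *Lum* and between 0.897 and 1 for every other named gene, so their differences are given as sizes with intervals and unadjusted p-values.

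Chemokine ligands were mostly lower in CLE. Of 28 tested ligands, 5 were higher and 23 lower by sign, where 40.8% of all genes were higher, 5 had p under 0.05 and 4 did not overlap, all in this direction, and 0 went the other way. The shares over all genes were 3.89% and 6.28%, as given above, and the median difference of the list was -0.18. *Ccl8*, a ligand for monocytes and T cells, had nearly the same value in each CLE mouse, 11.9, 11.6 and 11.9 FPKM, against 25.9, 33.3 and 20.9 FPKM in the LU mice. Its difference was -1.09 (95% interval -1.74 to -0.44, unadjusted p = 0.00358 from limma), and it lay between -1.25 and -0.92 in all 25 alternatives. *Ccl5*, which attracts T cells and is made by them, had 4.39, 7.58 and 8.83 FPKM in CLE and 9.23, 20.5 and 12.4 FPKM in LU, a difference of -0.90 (95% interval -1.58 to -0.22). Here LU mouse 3 stood highest, as it did for the T cell genes, and the groups were separated by a small gap. *Ccl9* and *Cxcl16* had differences of -0.54 and -0.46 with overlapping mice. *Ccl2*, the main monocyte attractant of obese fat, had 8.33, 5.01 and 15.1 FPKM in CLE and 12.4, 11.1 and 17.2 FPKM in LU, with an interval from -1.32 to 0.18 that allows a large fall as well as no difference. Summed over the 37 listed ligands, CLE mice had 380 to 449 FPKM and LU mice 483 to 537 FPKM, without overlap. Without CLE mouse 2, 2 ligands had p under 0.05 in place of 5, and without LU mouse 3 or LU mouse 8 the number lower was 3. Among 14 chemokine receptors, 1 had p under 0.05, *Ccr1*, a receptor of monocytes, with a difference of -0.30, and 0 had it under each of the 3 other scalings.

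Genes of macrophage identity were lower in CLE in 16 of 19 tested members. The list had 8 members with p under 0.05, all lower, and 7 without overlap, all lower, and its median difference was -0.32. Over all genes 40.8% were higher in CLE by sign, 3.89% lower under this p and 6.28% lower without overlap. *Lyz2*, the lysozyme of myeloid cells, had 431, 495 and 625 FPKM in CLE mice and 698, 694 and 758 FPKM in LU mice, a difference of -0.49 (95% interval -0.88 to -0.09). *Csf1r*, the receptor on which macrophages depend for survival, had 38.9, 42.6 and 45.7 FPKM in CLE and 58.9, 49.5 and 57.1 FPKM in LU. Both were separated between the groups, whereas *Adgre1*, which encodes the macrophage marker F4/80, had 15.9, 20.1 and 31.9 FPKM in CLE and 33.3, 30.7 and 43.0 FPKM in LU, with CLE mouse 11 inside the LU range and a difference of -0.67 (95% interval -1.18 to -0.17). *Mrc1*, the mannose receptor of resident macrophages, was at 27.8, 29.8 and 24.1 FPKM in CLE and 34.4, 37.2 and 31.0 FPKM in LU. Over the 20 listed genes the sums were 885 to 1152 FPKM in CLE and 1300 to 1396 FPKM in LU, against 2948 to 3427 FPKM in HFD mice. Without CLE mouse 2 the count of members with p under 0.05 was 1, without LU mouse 8 it was 3, and without CLE mouse 11 it was 9, while the median stayed between -0.33 and -0.24 in fits without 1 of the 6 mice.

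Lipid-associated macrophages, which surround dying adipocytes, overlapped between the groups in most markers. Of 19 tested markers 2 had p under 0.05 and 2 did not overlap, all lower in CLE, against 3.89% and 6.28% over all genes. *Trem2*, the lipid receptor that defines these cells, had 6.25, 11.5 and 43.5 FPKM in CLE mice and 21.2, 16.4 and 47.6 FPKM in LU mice. *Gpnmb*, a glycoprotein of lipid-laden macrophages, had 14.9, 27.9 and 137 FPKM in CLE and 65.3, 46.7 and 109 FPKM in LU. In both genes the highest mouse of each group, CLE mouse 11 and LU mouse 8, stood far above the other 2, and the intervals were wide, from -1.92 to 0.44 for *Trem2* and from -2.14 to 0.50 for *Gpnmb*. Without CLE mouse 11, 12 of the 19 markers had p under 0.05, all lower, with a median of -0.46 in place of -0.26. In that fit 991 of all 12796 genes were lower at this p, against 498 with all mice. *Tyrobp*, the adaptor through which TREM2 signals, was separated, with 50.3, 55.2 and 84.1 FPKM in CLE and 85.3, 85.7 and 105 FPKM in LU (difference -0.57, 95% interval -0.96 to -0.17). *Spp1*, which encodes osteopontin, had a difference of -1.03 with overlapping mice.

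**Figure D3:**
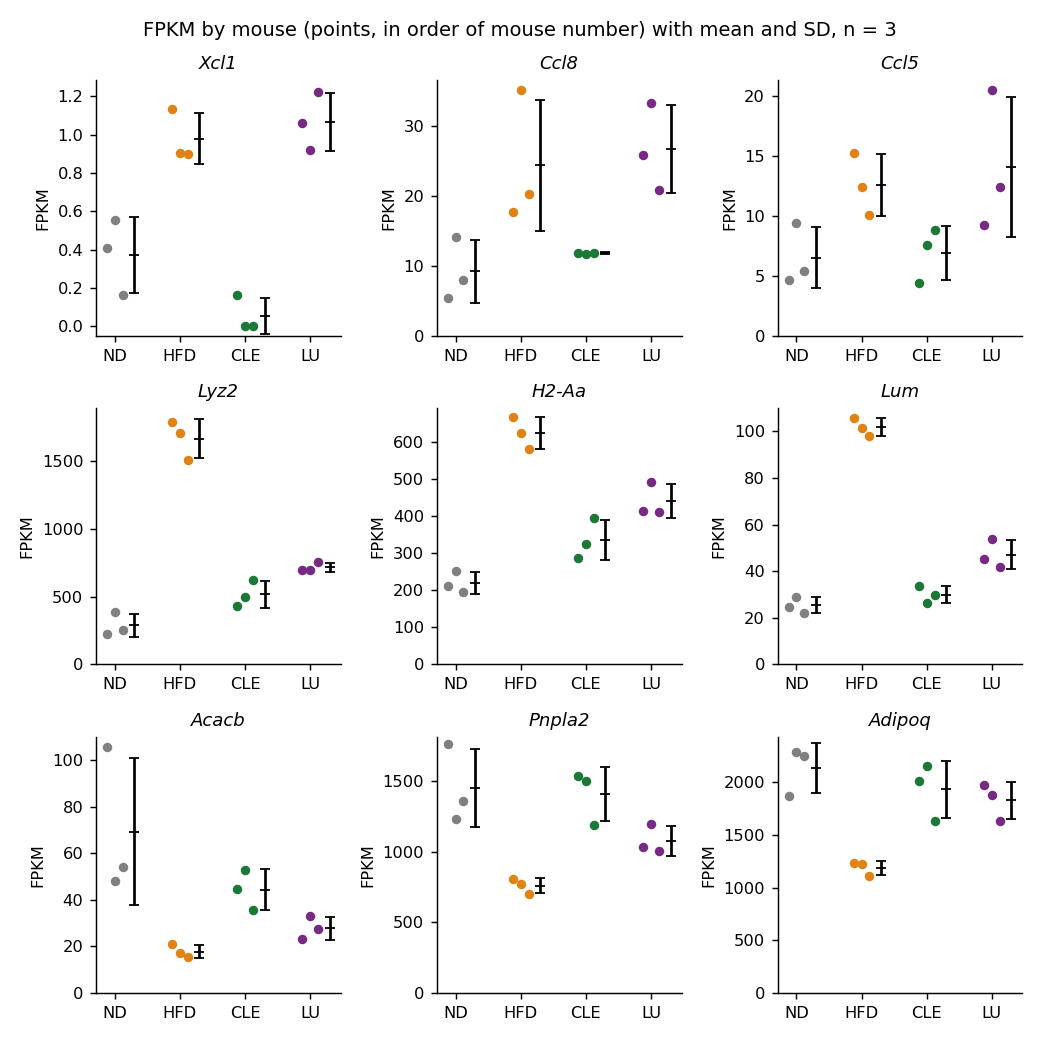
FPKM of 9 genes (vertical axes, linear) in each mouse of the ND, HFD, CLE and LU groups, as points in order of mouse number, with the mean and SD of 3 mice. *Xcl1*, *Ccl8*, *Ccl5*, *Lyz2*, *H2-Aa* and *Lum* are lower and *Acacb* higher in each CLE mouse than in each LU mouse, while *Pnpla2* and *Adipoq* overlap.

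Complement genes included those of the C1q complex, which macrophages make. Of 23 tested genes, 5 had p under 0.05 and 4 did not overlap, all lower in CLE, with a median of -0.31. The shares lower over all genes were 3.89% and 6.28%. *C1qc* had 55.7, 59.2 and 59.8 FPKM in CLE mice and 68.7, 75.2 and 73.2 FPKM in LU mice, a difference of -0.31 (95% interval -0.54 to -0.08). *C1qa* and *C1qb* had differences of -0.34 and -0.39, and these 3 genes also stand in the macrophage list, so the 2 counts are not separate. *Serping1*, the inhibitor of C1, had 200, 241 and 259 FPKM in CLE and 282, 278 and 331 FPKM in LU (difference -0.35, 95% interval -0.59 to -0.11). Summed over the 24 listed genes, CLE mice had 3527 to 4271 FPKM, on both sides of the LU mice with 3729 to 3865 FPKM. Without CLE mouse 2 the count with p under 0.05 was 2, and without CLE mouse 11 it was 10 lower and 1 higher.

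MHC class II presentation gave 6 of 14 tested genes with p under 0.05, all lower in CLE, and 4 without overlap, with a median of -0.33. In this direction the shares over all genes were 3.89% and 6.28%. *Ciita*, the transactivator that switches on the class II genes, had 4.50, 4.86 and 6.22 FPKM in CLE mice and 7.07, 7.50 and 6.86 FPKM in LU mice. Its difference was -0.40 (95% interval -0.63 to -0.18, unadjusted p = 0.0023 from limma). *H2-Aa*, an alpha chain of class II, had 286, 324 and 394 FPKM in CLE and 414, 493 and 412 FPKM in LU, a difference of -0.40 (95% interval -0.69 to -0.11). *H2-Eb1*, a beta chain, had 261, 272 and 326 FPKM in CLE and 341, 405 and 340 FPKM in LU. Summed over the 16 listed genes, CLE mice had 1422 to 2013 FPKM and LU mice 1966 to 2361 FPKM, with an overlap. In *Ciita*, *H2-Aa* and *H2-Eb1* each CLE mouse was below each LU mouse, with CLE mouse 11 nearest to the LU range. *Cd74*, the invariant chain, was at 518, 551 and 719 FPKM in CLE and 719, 843 and 728 FPKM in LU, where the highest CLE mouse was just under the lowest LU mouse. The count with p under 0.05 was 2 without CLE mouse 2, 2 without CLE mouse 4, 2 without the libraries with the letter R, 3 without LU mouse 3, and 9 without CLE mouse 11.

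*Ciita* is known to act through factors bound at a module of the class II promoters whose Y box holds a CCAAT element. The promoters of *H2-Aa* and *H2-Eb1*, a pair of class II genes whose levels were lower together with *Ciita*, are shown from RefSeq (build GRCm38.p6), from 250 bases before to 50 after the start, 5′ to 3′ on the strand of the gene. Capitals mark CTGATTGG, a Y box motif searched on both strands, with its first base at position 200 of *H2-Aa* (chr17:34287774-34288073, minus strand) and 189 of *H2-Eb1* (chr17:34305617-34305916, plus strand).
H2-Aa: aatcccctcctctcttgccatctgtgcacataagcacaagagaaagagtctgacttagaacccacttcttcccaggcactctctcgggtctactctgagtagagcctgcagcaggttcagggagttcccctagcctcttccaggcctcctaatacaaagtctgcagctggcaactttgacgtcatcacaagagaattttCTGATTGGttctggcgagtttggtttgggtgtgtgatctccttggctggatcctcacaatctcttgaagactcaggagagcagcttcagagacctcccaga
H2-Eb1: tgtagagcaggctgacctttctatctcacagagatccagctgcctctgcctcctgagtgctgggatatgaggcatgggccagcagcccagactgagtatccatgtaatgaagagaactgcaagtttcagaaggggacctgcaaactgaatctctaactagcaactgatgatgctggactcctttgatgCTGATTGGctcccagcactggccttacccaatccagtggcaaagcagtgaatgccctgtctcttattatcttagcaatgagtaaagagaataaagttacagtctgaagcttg
The same letters occurred in 4.10% of 32851 promoter windows of this length, and among the 14 tested class II genes, of which 9 had a window, in these 2. The other class II genes with a window held no such match and are not shown. Whether the motif goes with lower levels was not tested. A match is a description of the sequence, and binding was not measured.

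Other immune lists stood at different distances from the background. Over all genes 3.89% were lower in CLE under p 0.05 and 6.28% lower without overlap. Of 29 tested genes of toll-like receptor signaling and the inflammasome, 4 had p under 0.05 and 6 did not overlap (20.7%), all lower in CLE. Their median was -0.11. *Tlr8*, a receptor for RNA, had 3.72, 6.01 and 7.79 FPKM in CLE mice and 8.22, 7.86 and 10.3 FPKM in LU mice. *Tlr2*, a receptor for lipopeptides, had a difference of -0.20 (unadjusted p = 0.0488 from limma), and *Tlr4*, the receptor for lipopolysaccharide, one of 0.01 (95% interval -0.28 to 0.30). The count of 4 was 0 without CLE mouse 2 or without the libraries with the letter R, 2 without CLE mouse 4 and 1 without LU mouse 8. Of 25 cytokines and receptors, 3 had p under 0.05, all lower, and without CLE mouse 11 there were 8 lower and 1 higher. *Il1rn*, the antagonist of interleukin 1, had 0.843, 2.27 and 6.52 FPKM in CLE and 7.94, 6.23 and 9.37 FPKM in LU, a difference of -1.30 (95% interval -2.16 to -0.43) in which CLE mouse 11 overlapped. *Tnf* was at 0.547, 0.385 and 1.11 FPKM in CLE and 0.426, 0.323 and 0.797 FPKM in LU, with an interval from -0.21 to 0.48. The 34 interferon-stimulated genes had 0 members with p under 0.05 in either direction and a median of -0.17, but 9 were lower without CLE mouse 11, and the 7 tested B cell genes had 1.

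Genes with the largest differences across the whole table were chosen among 269 genes with p under 0.05, no overlap and a mean of at least 5 FPKM, of which 195 were lower and 74 higher in CLE. Among the 8 largest on the lower side were *Ms4a7*, a membrane protein of macrophages, with 5.44, 9.51 and 8.72 FPKM in CLE mice and 13.3, 15.3 and 12.8 FPKM in LU mice, and *Cd83*, a surface protein of activated dendritic and B cells, with 4.59, 5.92 and 10.1 FPKM and 10.6, 12.9 and 10.3 FPKM. *Lst1* and *Wfdc17*, genes expressed in myeloid cells, had differences of -0.74 and -0.69. All 4 of these are known from immune cells, as are *Ccl8* and *Ccl5* of the same 8. The difference of *Ms4a7* was -0.13 when annotated transcripts alone were summed, against -0.76 with the assembled ones. *Gm10337*, a gene without a known role, was listed at 0, 133 and 0 FPKM in CLE and at 258, 191 and 212 FPKM in LU, and zeros beside such values may be failed estimates, so no fold is given.

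Most collagens were lower in CLE by sign. Of 24 tested collagens, 22 were lower by sign, 4 had p under 0.05 and 6 did not overlap, all lower, with a median of -0.25. Over all genes 40.8% were higher by sign, 3.89% lower under this p and 6.28% lower without overlap. *Col1a2*, a chain of the fibrillar collagen I, had 128, 123 and 120 FPKM in CLE mice and 158, 164 and 144 FPKM in LU mice (difference -0.33, 95% interval -0.50 to -0.16, unadjusted p = 0.00142 from limma). *Col3a1*, the fibrillar collagen of reticular fibers, had 286, 182 and 305 FPKM in CLE and 355, 393 and 336 FPKM in LU. *Col6a5*, a chain of the microfibrillar collagen VI, was at 7.18, 8.93 and 8.79 FPKM in CLE and 16.8, 15.2 and 13.4 FPKM in LU, a difference of -0.80 (95% interval -1.32 to -0.28). These 3 collagens were each separated between the groups. *Col1a1* had a difference of -0.51 with a small overlap. The sums over the 31 listed collagens overlapped, with 1517 to 2116 FPKM in CLE and 2094 to 2373 FPKM in LU. The collagen count with p under 0.05 was 2 without CLE mouse 4 and 7 without CLE mouse 11.

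*Lum*, which encodes lumican, a proteoglycan that spaces collagen fibrils, had the smallest unadjusted p of the lists after *Xcl1*. It stood at 33.7, 26.5 and 29.7 FPKM in CLE mice and 45.5, 53.8 and 41.8 FPKM in LU mice, with the ND mean at 25.3 FPKM and the HFD mean at 102 FPKM. The difference was -0.63 (95% interval -0.90 to -0.36, limma with Benjamini-Hochberg adjustment, unadjusted p = 0.000308, adjusted p = 0.787), and it lay between -0.72 and -0.53 in all 25 alternatives. *Bgn*, which encodes biglycan, had 140, 145 and 147 FPKM in CLE and 172, 183 and 195 FPKM in LU, a difference of -0.35. Over the 38 tested matrix glycoproteins and remodeling enzymes, 4 had p under 0.05, all lower, where 3.89% of all genes were lower. But 14 were higher by sign, a share near that of all genes, and the median was -0.08. The count with p under 0.05 was 2 without LU mouse 3 and 7 without CLE mouse 11. *Mmp2* and *Mmp14*, proteases of the matrix, did not overlap, with differences of -0.33 and -0.20.

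At p under 0.05, 3.89% of all genes were lower in CLE. Cell cycle genes had a median of -0.18, with 1 of 33 under this p. This was *Cdk1*, the kinase that drives entry into mitosis, with 5.32, 3.87 and 3.92 FPKM in CLE mice and 5.65, 8.21 and 8.26 FPKM in LU mice. Without CLE mouse 11 the count was 4 and the median -0.29, without LU mouse 2 the count was 3, and without LU mouse 8 the median was -0.07. Of 48 lysosome genes 4 were higher and 44 lower by sign, against 40.8% higher over all genes, with a median of -0.17, and 1 had p under 0.05, *Hexa*, a subunit of the lysosomal enzyme hexosaminidase A, with a difference of -0.31. Without CLE mouse 11, 16 lysosome genes had p under 0.05 lower and 1 higher, and their median was -0.25.

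**Figure D4:**
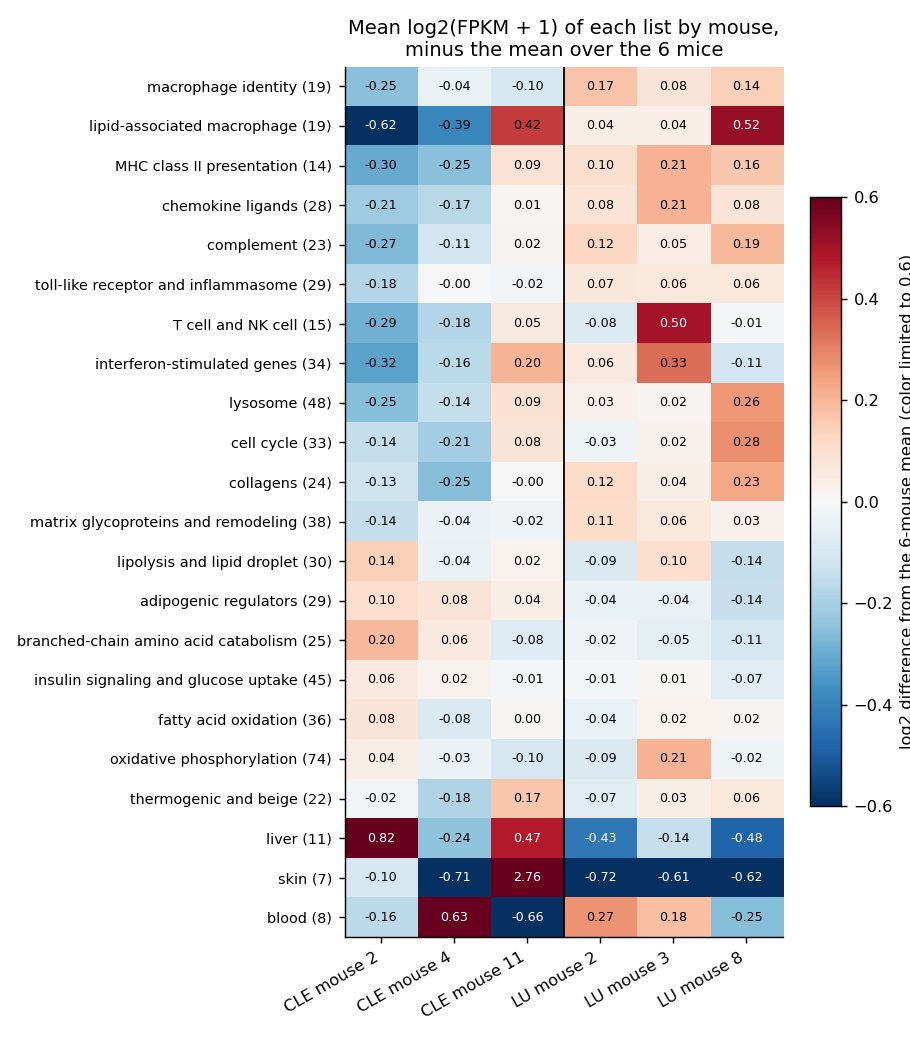
Mean log2(FPKM + 1) over the tested members of 22 gene lists in each of the 6 mice, minus the mean of the 6 mice. CLE mouse 2 is lowest in most immune lists, CLE mouse 11 and LU mouse 8 are highest for lipid-associated macrophages (0.42 and 0.52), and CLE mouse 11 stands at 2.76 for skin.

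The mean level of the macrophage identity list, taken relative to the 6 mice, was -0.25, -0.04 and -0.10 in the CLE mice and 0.17, 0.08 and 0.14 in the LU mice. For lipid-associated macrophages it was -0.62, -0.39 and 0.42 in CLE and 0.04, 0.04 and 0.52 in LU, so CLE mouse 11 and LU mouse 8 were alike. The list means on the log2 scale did not overlap, with CLE lower, for macrophage identity, dendritic cells, MHC class II presentation, complement, chemokine ligands, toll-like receptor signaling, collagens and matrix proteins. For chemokine receptors the nearest CLE and LU mice were both at -0.03. Adipogenic regulators were the list in which the CLE mice lay above the LU mice, at 0.10, 0.08 and 0.04 against -0.04, -0.04 and -0.14.

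**Figure D5:**
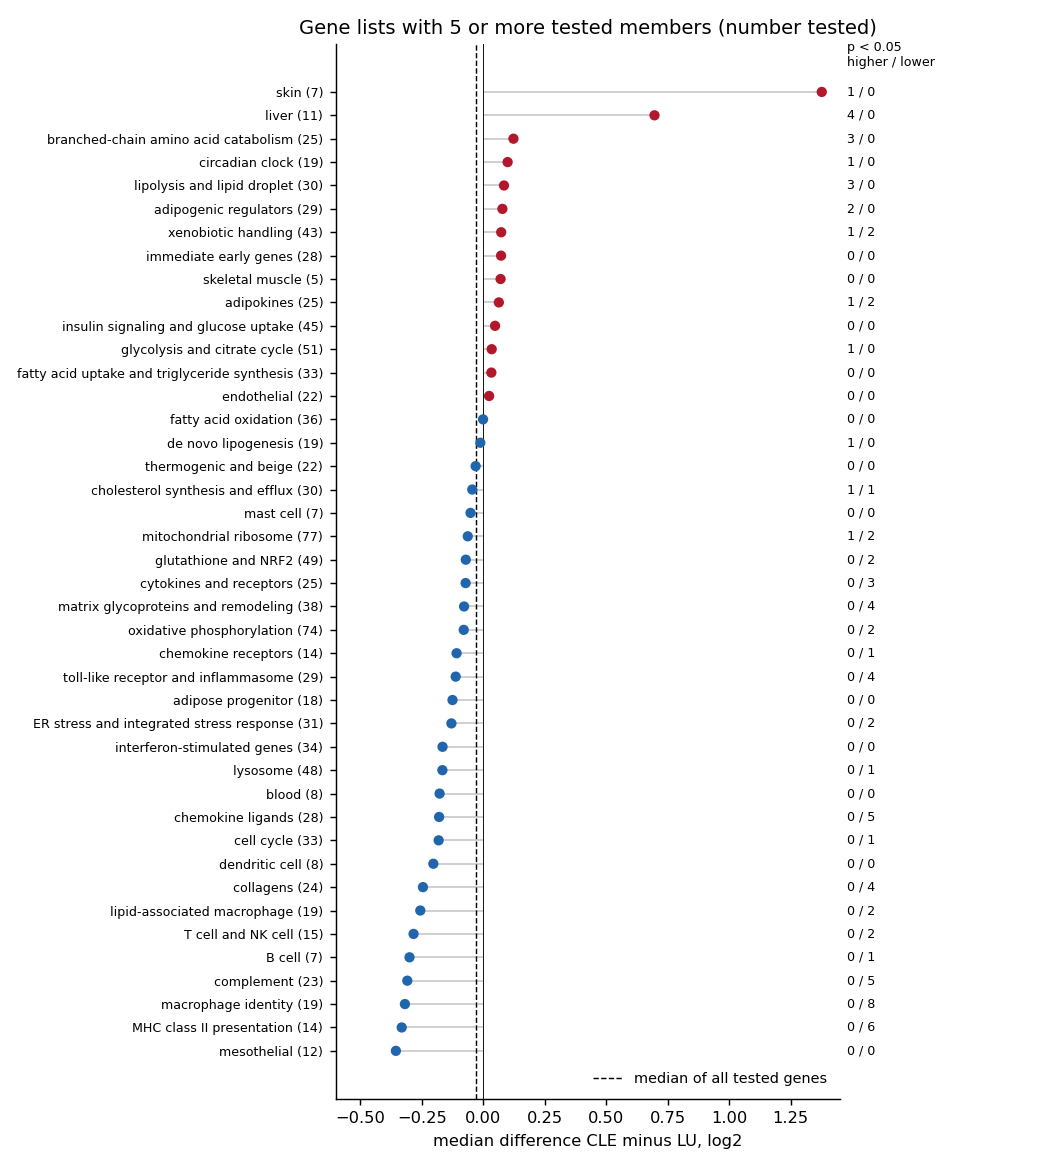
Median difference CLE minus LU on the log2 scale (horizontal axis) of gene lists with 5 or more tested members, with the number tested in brackets. The dashed line is the median over all tested genes (-0.03), and the right column counts members with an unadjusted p under 0.05 higher and lower in CLE, such as 0 and 8 for macrophage identity.

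Genes of lipolysis and the lipid droplet differed little between the groups, and their list means overlapped. Of 30 tested genes, 20 were higher by sign, 3 had p under 0.05, all higher, and 0 were without overlap, with a median of 0.08. Over all genes 1.34% were higher in CLE at this p and 2.71% were higher without overlap. *Pnpla2*, which encodes adipose triglyceride lipase, had 1540, 1504 and 1191 FPKM in CLE mice and 1034, 1198 and 1003 FPKM in LU mice, a difference of 0.38 (95% interval 0.07 to 0.70, unadjusted p = 0.0208 from limma). *G0s2*, an inhibitor of that lipase, stood at 383, 415 and 349 FPKM in CLE and 290, 276 and 363 FPKM in LU (difference 0.31, 95% interval 0.05 to 0.58). *Cidec*, which fuses lipid droplets, had 3785, 3288 and 2912 FPKM in CLE and 2692, 3075 and 2495 FPKM in LU (difference 0.27, 95% interval 0.00 to 0.54). The lipase, its inhibitor and a storage protein were thus all higher on average, each with 1 CLE mouse inside the LU range. The count was 0 without CLE mouse 2, 1 without LU mouse 2, 0 without the libraries with the letter R and 8 higher and 1 lower without CLE mouse 11. *Plin1*, the perilipin that coats the droplet, and *Lipe*, hormone-sensitive lipase, had differences of 0.13 (95% interval -0.14 to 0.41) and 0.14 (95% interval -0.06 to 0.34).

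*Acacb*, the acetyl-CoA carboxylase whose product restrains fatty acid entry into mitochondria, was separated between the groups. It had 44.9, 52.9 and 35.6 FPKM in CLE mice and 23.0, 32.9 and 27.5 FPKM in LU mice, a difference of 0.65 (95% interval 0.08 to 1.22, unadjusted p = 0.0279 from limma), and without the libraries with the letter R the difference was 0.40. It was the 1 gene under p 0.05 among 19 of de novo lipogenesis, where 1.34% of all genes were higher, and the list's median was -0.01. *Scd1*, the desaturase of the same pathway, was listed at 0 in all 6 mice, which may be a failed estimate. Fatty acid uptake and triglyceride synthesis had 0 of 33 genes with p under 0.05 and a median of 0.03. *Pck1*, which supplies glycerol 3-phosphate for triglyceride, had 2123, 2010 and 1217 FPKM in CLE and 1463, 1448 and 1178 FPKM in LU, with an interval from -0.05 to 0.75. Among 30 genes of cholesterol synthesis and efflux, *Abcg1*, an exporter of cholesterol, was higher in each CLE mouse (56.7, 52.5 and 54.4 FPKM against 40.1, 49.4 and 41.1 FPKM), and *Soat1*, which esterifies cholesterol, was lower on average (7.08, 7.30 and 15.6 FPKM against 15.8, 14.2 and 18.5 FPKM).

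The other genes with the largest differences on the higher side came from several functions. *Dmrt2*, a transcription factor expressed in adipocytes, had 37.8, 41.4 and 43.1 FPKM in CLE mice and 28.6, 22.9 and 27.1 FPKM in LU mice, a difference of 0.62 (95% interval 0.30 to 0.94, unadjusted p = 0.00119 from limma), between 0.53 and 0.69 in all 25 alternatives. *Acot4*, a peroxisomal thioesterase, had 5.78, 6.29 and 4.70 FPKM in CLE and 3.0, 2.83 and 3.19 FPKM in LU, a difference of 0.71. *Chdh*, choline dehydrogenase of mitochondria, had a difference of 0.51, *Mef2b*, a transcription factor, one of 0.72, and *Tmem88b*, a membrane protein, one of 0.55. Each of these 5 was higher in every CLE mouse than in every LU mouse. *Fkbp5*, a co-chaperone induced by glucocorticoids, had 30.7, 79.1 and 24.8 FPKM in CLE and 22.9, 18.4 and 23.9 FPKM in LU. CLE mouse 4 alone was far above the rest, and without it the difference was 0.34 in place of 0.84.

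Regulators of adipogenesis had 23 of 29 tested genes higher in CLE by sign and a median of 0.08, with 2 under p 0.05. Over all genes 40.8% were higher by sign and 1.34% at this p. *Fam13a*, a gene linked to fat distribution, had 95.3, 91.2 and 32.3 FPKM in CLE mice and 31.2, 56.3 and 16.7 FPKM in LU mice, a difference of 1.06 (95% interval 0.06 to 2.06), which was 0.63 without LU mouse 8. *Mycl*, a transcription factor of the MYC family, had a difference of 0.73 with overlapping mice. The count was 0 without CLE mouse 2, LU mouse 2 or LU mouse 8, and 4 without CLE mouse 11. *Pparg*, the master regulator of adipocyte differentiation, had 93.2, 88.3 and 90.2 FPKM in CLE and 80.7, 100 and 86.5 FPKM in LU, with a difference of 0.03 (95% interval -0.26 to 0.32). It was thus within 1.5-fold of LU at either end of its interval.

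Among 25 adipokines, *Nrg4*, a secreted ligand of ErbB receptors, had 93.2, 65.8 and 53.0 FPKM in CLE mice and 48.4, 61.6 and 38.5 FPKM in LU mice (difference 0.49, 95% interval 0.05 to 0.94). *Metrnl* and *Hp*, which encode meteorin-like and the acute phase protein haptoglobin, had differences of -0.38 and -0.58. These were the 3 adipokines with p under 0.05, 1 higher and 2 lower, and the median of the list was 0.06. Over all genes 1.34% were higher and 3.89% lower at this p. *Adipoq* had a difference of 0.07 (95% interval -0.20 to 0.35), and *Lep*, which encodes leptin, one of 0.10 (95% interval -0.40 to 0.60), with 497, 586 and 697 FPKM in CLE and 500, 410 and 806 FPKM in LU. The adiponectin receptors *Adipor1* and *Adipor2* had intervals from -0.08 to 0.23 and from -0.08 to 0.50.

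Branched-chain amino acid catabolism, a pathway active in adipocyte mitochondria, had 21 of 25 tested genes higher in CLE by sign and a median of 0.12. Of these, 3 had p under 0.05, all higher, while 2 were higher and 2 lower without overlap. Over all genes 40.8% were higher by sign and 1.34% at this p, with 2.71% higher and 6.28% lower without overlap. *Pccb*, a subunit of propionyl-CoA carboxylase, had 252, 223 and 185 FPKM in CLE mice and 184, 188 and 174 FPKM in LU mice. *Dbt*, a subunit of the branched-chain keto acid dehydrogenase, had 33.6, 29.7 and 25.0 FPKM in CLE and 25.3, 24.3 and 21.8 FPKM in LU, and *Ppm1k*, the phosphatase that activates this enzyme, had a difference of 0.27. In the first 2, CLE mouse 2 was highest and CLE mouse 11 lay inside the LU range. The count was 0 without CLE mouse 2, CLE mouse 4 or LU mouse 8, 1 without LU mouse 3 or without the libraries with the letter R, and 7 without CLE mouse 11.

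Energy metabolism lists held the narrowest intervals. The interval lay within 1.5-fold for 76 of 77 mitochondrial ribosome genes, 71 of 74 genes of oxidative phosphorylation, 33 of 36 of fatty acid oxidation and 41 of 45 of insulin signaling and glucose uptake. Fatty acid oxidation had a median of -0.00104, with 0 genes under p 0.05, and *Cpt2*, the inner carnitine palmitoyltransferase, had an interval from -0.19 to 0.31. *Acadl*, a dehydrogenase of long-chain acyl-CoA, had an interval from -0.19 to 0.27. The median of oxidative phosphorylation was -0.08 with 2 genes lower under p 0.05, where 3.89% of all genes were lower. They were *Ndufb5* and *Ndufc1*, both subunits of complex I, with differences of -0.32 and -0.28. *Ndufb5* was at -0.14 when read from its transcript with the highest mean, and *Ndufc1* at -0.04 with annotated transcripts alone. Without LU mouse 3 the list's median was 0.02, with 2 genes higher and 0 lower, and 12 were lower once both letter R libraries were left out. Insulin signaling had 0 of 45 genes under p 0.05 and a median of 0.05, but without CLE mouse 11 it had 4 higher and 1 lower.

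Thermogenic genes gave no nominal difference, but with wide intervals. Of 22 tested genes 0 had p under 0.05, the median was -0.03, and 11 intervals lay within 1.5-fold. Without CLE mouse 11, 1 was higher and 3 lower with a median of -0.15, without CLE mouse 4 or LU mouse 3 the median was above 0, and 2 were higher once both letter R libraries were left out. *Adrb3*, the adrenergic receptor that triggers lipolysis and thermogenesis, had 438, 241 and 344 FPKM in CLE mice and 295, 459 and 208 FPKM in LU mice, with a difference of 0.12 (95% interval -0.51 to 0.75). *Cidea*, *Cox8b* and *Fgf21*, markers of brown and beige fat, had intervals from -0.39 to 0.50, from -0.55 to 0.29 and from -0.54 to 0.22. *Ucp1*, the uncoupling protein that defines these cells, was under the filter, with 0.12 to 0.254 FPKM in CLE and 0.092 to 0.335 FPKM in LU.

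Genes of xenobiotic handling and of the antioxidant response are known targets of plant flavonoids. Of 43 tested genes of xenobiotic handling, 1 was higher and 2 lower under p 0.05, and the median was 0.07. Each count here is to be read beside all genes, of which 1.34% were higher and 3.89% lower at this p. Without CLE mouse 11 the counts were 6 higher and 1 lower, and without CLE mouse 4 the median was 0.0071. *Sult1a1*, a sulfotransferase of phenols, had 89.7, 121 and 86.9 FPKM in CLE mice and 72.9, 75.3 and 83.6 FPKM in LU mice (difference 0.34, 95% interval 0.06 to 0.62), which was 0.15 without the libraries with the letter R. *Ugt1a7c*, a glucuronosyltransferase, had 11.7, 11.7 and 8.64 FPKM in CLE and 15.4, 13.8 and 14.7 FPKM in LU (difference -0.43, 95% interval -0.70 to -0.16). Both were separated between the groups, in opposite directions. *Cyp2e1* had 1081, 956 and 549 FPKM in CLE and 566, 972 and 363 FPKM in LU, with an interval from -0.41 to 1.41, and *Cyp1a1*, the main target of the aryl hydrocarbon receptor, was under the filter at 0 to 0.0673 FPKM in all 6 mice. Among 49 genes of glutathione and NRF2, 2 were lower under p 0.05, *Txn1* (thioredoxin, difference -0.25) and *Hmox1* (heme oxygenase, difference -0.30), and the median was -0.07. That count was near the share over all genes. *Nqo1*, a quinone reductase and classical NRF2 target, had 4.47, 5.29 and 5.05 FPKM in CLE and 4.93, 5.06 and 3.19 FPKM in LU. Of 31 genes of ER stress, 2 were lower under p 0.05, among them *Ddit3*, the stress factor CHOP, with 9.26, 11.5 and 14.5 FPKM in CLE and 14.7, 18.8 and 15.9 FPKM in LU. The count of ER stress genes was 11 without CLE mouse 11, 5 without LU mouse 2, 4 without LU mouse 8 and 1 without CLE mouse 2 or LU mouse 3.

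Each supplement was also set beside the HFD group, whose 3 mice enter both contrasts. Under the same rule 813 genes were higher (6.35%) and 1302 lower (10.2%) in CLE than in HFD, 16.5% of those tested. With LU, 613 were higher (4.79%) and 981 lower (7.67%), 12.5% of those tested. In the macrophage identity list 14 of 19 genes were called lower in CLE and 14 in LU, with medians of -1.40 and -1.13. The medians were -0.80 with CLE and -0.48 with LU for MHC class II presentation, -0.71 and -0.47 for complement, -0.67 and -0.36 for collagens and -0.45 and -0.02 for chemokine ligands. For lipolysis and the lipid droplet they were 0.58 and 0.50, and for branched-chain amino acid catabolism 0.51 and 0.33. In other lists the value with LU was the larger, with 0.31 and 0.42 for oxidative phosphorylation, 0.14 and 0.20 for the mitochondrial ribosome, 0.18 and 0.25 for glutathione and NRF2 and 0.44 and 0.85 for mesothelial genes. *Ccl8* and *Ccl5* stood at -0.93 and -0.80 with CLE and at 0.16 and 0.10 with LU, *Lum* at -1.74 and -1.11, and *Acacb* at 1.27 and 0.61.

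Genes of other tissues and cell types were checked for material that differs between the libraries. Of 20 listed liver genes 11 passed the filter, 10 of them higher in CLE by sign, and 4 had p under 0.05, all higher, with a median of 0.70. Over all genes 40.8% were higher by sign and 1.34% at this p. *Alb*, which encodes albumin, had 13.5, 5.26 and 9.04 FPKM in CLE mice and 4.22, 3.97 and 3.42 FPKM in LU mice. *Apoa2*, an apolipoprotein made in liver, had 9.23, 0.676 and 4.71 FPKM in CLE and 0.142, 1.15 and 0.716 FPKM in LU, and *Fabp1*, the fatty acid binding protein of liver, had 3.62, 0.377 and 3.53 FPKM and 0.261, 0.265 and 0.131 FPKM. CLE mice 2 and 11 were high in all 3, and CLE mouse 4 was near the LU mice. The count of liver genes was 0 without CLE mouse 2, 1 without CLE mouse 11, LU mouse 2 or LU mouse 8, and 8 without CLE mouse 4, and what gives these transcripts was not tested.

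Skin genes had a median of 1.38, with 7 of 16 tested, which was 0.03 without CLE mouse 11. In that mouse *Krt10* and *Krt14*, keratins of the epidermis, were at 51.4 and 21.7 FPKM, against at most 0.649 and 0.144 FPKM in the other 5. The summed blood genes ranged from 300.3 to 1211 FPKM in CLE and from 482 to 782 FPKM in LU, and *Hba-a1*, an alpha globin, had 93.0, 229 and 55.2 FPKM in CLE and 143, 132 and 84.0 FPKM in LU. Of 12 tested mesothelial genes, from the depot's lining, 5 were lower without overlap, against 6.28% of all genes, and 0 were under p 0.05. Their median was -0.36. This median was -0.15 without LU mouse 3, -0.20 without LU mouse 2 and -0.09 once both letter R libraries were left out, where 4 were lower under p 0.05. The 22 endothelial genes had a median of 0.02 and the 18 adipose progenitor genes one of -0.13, each with 0 genes under p 0.05 in either direction. The part of these tissues in the differences above was not tested.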

How the data were processed

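RNA of epididymal fat from 12 mice, 3 in each group, was measured by RNA-seq, and members and gene lists were chosen with earlier results of these data known. The authors deposited FPKM values for each transcript and library, made with TopHat2 2.0.12, Bowtie2 2.2.3 and Cufflinks 2.2.1 per the submitters' processing notes, with neither read counts nor depth. The build is not given in the sources used here, and coordinates are those of GRCm38. Of the FPKM columns, 3 matched no sample and were not used, nor were the authors' columns of called genes. The column of 1 ND mouse was read as ND mouse 4 from a near match of its name.

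FPKM were summed over the annotated transcripts of each gene and over assembled transcripts that share splice junctions with 1 of them. All others, the unannotated transcripts among them, were left out. Genes with at least 1 FPKM in at least 3 of the 12 libraries were kept (12796 of 22982) and fitted on log2(FPKM + 1) with limma 3.58.1, all 12 libraries in 1 fit, so that log2 differences understate the change of low genes. A call needed a fold change over 1.5 and a p under 0.05 after Benjamini-Hochberg adjustment. The fit was tested on simulated data. Named genes were those called, the 8 largest differences in each direction with an unadjusted p under 0.05, no overlap and a mean of at least 5 FPKM, the 2 members of each list with the smallest p, and genes the study or a cell type is known for. Others past this p, and *Krt10*, *Krt14*, *Krtdap*, *Ncr1*, *Hba-a1* and *Apoa2*, were chosen after their values were seen. Replicates were separate mice. The alternatives were another pseudocount, other filters and scalings, other summaries of transcripts, other forms of the fit, and each library left out. Those without an ND or HFD mouse, and those that change only the estimate of spread, cannot move a difference between CLE and LU.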

Additional observations from a re-analysis of the deposited data

Results flagged for a closer look

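*Xcl1* stood out because its response to the diet supplement differed between CLE and LU. The shared HFD mean drops out of that difference, so its test is the call given above and not a further test. Against the HFD mice the response was -0.91 with CLE (limma, adjusted p = 0.000154) and 0.06 with LU (limma, adjusted p = 0.723). The difference between these was -0.97, and *Xcl1* was lower in 3 of 3 CLE mice than in every LU mouse. Both CLE zeros and the levels near 1 FPKM limit what the values can carry. The call was lost in most of the 24 alternatives in which *Xcl1* was tested, and no CLE mouse reached the 1 FPKM of the filter.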

How the results depend on the processing

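The 1 call, *Xcl1*, was kept with equal totals, median ratios, array weights and without ND mouse 3 or 4. The number of calls was 0 with a pseudocount of 0.1, no filter, a mean of at least 5 FPKM (where *Xcl1* was not tested), quantiles, the CLE and LU libraries alone, a trend, the letter R as a covariate, the transcript with the highest mean, and annotated transcripts alone (added after the data were seen). Without the libraries with the letter R the 1 call was *Gm10337*. Genes higher in CLE at an unadjusted p under 0.05 numbered 277 with no filter, 111 with the mean filter and 325 with quantiles. Without the libraries with the letter R, 3829 genes did not overlap, 1335 higher and 2494 lower, with 2 mice a group. Genes without overlap that were higher numbered 552 with median ratios and 610 with quantiles, and those lower 493 with quantiles. With the transcript of the highest mean, *Tnfrsf13b* was at 0.0628 and *Mrps11* at -0.30, both reversed. The share of intervals within 1.5-fold was 70.3% with that transcript and 71.0% with annotated transcripts alone. It was 73.0% with a pseudocount of 0.1 and 74.8% without the libraries with the letter R. Leaving out 1 library at a time gave 0 to 1 calls, 395 to 1351 genes with an unadjusted p under 0.05 (130 to 360 higher, 234 to 991 lower), 2119 to 3616 without overlap (683 to 1152 higher, 1187 to 2464 lower), intervals within 1.5-fold for 76.1 to 85.1%, 28 to 31 lists with a median below 0, and 1908 to 2326 calls for CLE and 1356 to 1693 for LU against HFD. The causes were not tested. No paired analysis was possible because CLE and LU share only mouse number 2, and nothing says that a number links animals. Depth is unknown.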

Other observations

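*Ndufa3*, a subunit of complex I, stood at 2024 FPKM in CLE mouse 2 and between 187 and 213 FPKM in the other 5 mice. *Ubd*, a ubiquitin-like modifier induced by cytokines, had 13.5, 13.7 and 79.8 FPKM in CLE and 44.5, 66.2 and 113 FPKM in LU, so that CLE mouse 11 stood inside the LU range. Both were chosen after their values were seen.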
